A study of Mus musculus with 64 samples.

Results

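The effect of loss of Morc1 on the juvenile testis was examined on the first days of the meiotic wave, at P10.5 (days after birth), by mRNA sequencing of whole testes, in 3 Morc1tg/tg libraries and 3 control libraries. These 6 libraries were picked by their labels from the 64 samples of the study, of which 47 are RNA-Seq libraries, and 2 further P10.5 testis libraries that are marked as preliminary were not used in the comparison. Controls were Morc1tg/+ replicates 2 and 3 and Morc1+/+ replicate 1, so the control arm mixes a genotype that carries the mutant allele with one that does not. The line was kept by sibling crosses on FVB/N, an inbred strain, and each library came from 1 mouse. In the mutant allele a tyrosinase transgene sits in Morc1 in place of exons 2 to 4. The allele is inherited, so the gene was disrupted from conception onwards, and adult Morc1tg/tg males are infertile. The kit (TruSeq v2) reads poly(A) RNA and does not mark strand, so reads of a gene and of an antisense partner cannot be told apart.

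Other comparisons are given beside that one where they bear on it. They are Morc1tg/tg against Morc1tg/+ whole testis at P14.5 (3 and 3 libraries), Morc1tg/tg against Morc1tg/+ germ cells sorted at P10.5 (3 and 4 libraries), and Dnmt3l-/- against Dnmt3l+/- and Dnmt3l+/+ whole testis at P10.5 (3 libraries of each genotype). Sorted germ cells had low side scatter, high EPCAM and no MHC class I, and their libraries were made from 10 ng of RNA with another kit, so tissue and kit cannot be told apart in a difference from the whole testis. The 4 comparisons share no library.

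MORC1 belongs to the microrchidia family of nuclear proteins, which carry a GHKL-type ATPase domain and act in gene silencing in animals and plants, and in mice it works in male germ cells. DNMT3L is the partner of the enzymes that lay down DNA methylation in those cells before birth. In the first days after birth the arrested germ cells return to division and give rise to undifferentiated spermatogonia, which include the stem cells, and to KIT-positive differentiating spermatogonia. Under retinoic acid, the oldest cells of this first wave switch on Stra8 and enter meiosis, build the synaptonemal complex between homologous chromosomes, and make and repair DNA breaks. At P10.5 these early meiotic cells are the most advanced germ cells of the tubule, next to Sertoli cells, and Leydig cells, macrophages and vessels fill the space outside it. In whole testis RNA, fewer cells of a type and less RNA per cell cannot be told apart.

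The stretch missing from the mutant allele is shown first, because it defines the mutant. Morc1 (ENSMUSG00000022652) lies on the plus strand of mouse chromosome 16, at 48431350 to 48631018 in the mm9 build (NCBIM37), and has 27 exons in the GENCODE transcript used here. Exons 2, 3 and 4 hold 158 of its 2850 coding bases (5.54%). They lie at chr16:48437388-48437441, chr16:48442518-48442552 and chr16:48446426-48446494, all coding, and read 5′ to 3′ as follows.
Morc1 exon 2: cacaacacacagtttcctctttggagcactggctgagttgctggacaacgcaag
Morc1 exon 3: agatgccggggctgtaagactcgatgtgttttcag
Morc1 exon 4: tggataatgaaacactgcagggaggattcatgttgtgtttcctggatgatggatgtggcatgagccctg
Exon 3 is the shortest of them, with 35 bases. The deposited values count all reads of the gene, so reads from exons 5 onwards are counted in the mutant as well.

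Upstream sequence is shown for 4 meiotic genes that fell and 2 genes with the largest rises, as examples. All 4 meiotic stretches hold a marked motif, but those of other meiotic genes that fell, Dmc1, Ccdc79 and Ccdc36 among them, hold none. Each line gives the 250 bases before a start in RefSeq (GRCm38.p6), 5′ to 3′ on the strand of the gene. Capitals mark 3 motifs searched on both strands: CNCCTCAG, known as the motif of STRA8, CACGTG, the E-box that MAX with MGA binds, and GGCGGGAA, bound by E2F6. In the Prdm9 stretch a GGCGGGAA match on the opposite strand and a CNCCTCAG match share bases and print as 1 run.
Hormad1: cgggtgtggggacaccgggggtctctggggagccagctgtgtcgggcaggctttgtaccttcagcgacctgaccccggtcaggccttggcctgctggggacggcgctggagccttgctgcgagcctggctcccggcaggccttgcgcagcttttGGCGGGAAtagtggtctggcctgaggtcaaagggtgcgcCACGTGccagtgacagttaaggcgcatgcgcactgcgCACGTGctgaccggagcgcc
Tex12: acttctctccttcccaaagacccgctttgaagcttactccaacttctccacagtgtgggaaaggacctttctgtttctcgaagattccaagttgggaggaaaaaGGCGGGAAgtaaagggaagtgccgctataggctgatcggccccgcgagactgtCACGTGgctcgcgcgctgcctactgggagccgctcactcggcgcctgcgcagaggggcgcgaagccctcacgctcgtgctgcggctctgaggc
Sycp3: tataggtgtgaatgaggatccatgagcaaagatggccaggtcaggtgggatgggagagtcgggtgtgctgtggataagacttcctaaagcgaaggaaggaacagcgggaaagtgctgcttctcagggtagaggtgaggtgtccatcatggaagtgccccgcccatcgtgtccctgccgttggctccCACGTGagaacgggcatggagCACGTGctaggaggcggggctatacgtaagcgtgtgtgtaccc
Prdm9: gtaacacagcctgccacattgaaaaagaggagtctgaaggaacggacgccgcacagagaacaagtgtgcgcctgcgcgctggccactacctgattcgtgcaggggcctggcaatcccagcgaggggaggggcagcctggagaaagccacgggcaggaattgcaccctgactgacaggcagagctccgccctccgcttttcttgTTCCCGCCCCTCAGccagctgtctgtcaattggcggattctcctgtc
Clec2g: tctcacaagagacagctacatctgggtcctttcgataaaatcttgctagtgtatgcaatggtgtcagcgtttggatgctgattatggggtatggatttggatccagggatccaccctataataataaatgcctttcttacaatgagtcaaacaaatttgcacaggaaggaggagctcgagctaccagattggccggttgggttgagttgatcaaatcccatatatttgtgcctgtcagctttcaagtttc
Gm1698: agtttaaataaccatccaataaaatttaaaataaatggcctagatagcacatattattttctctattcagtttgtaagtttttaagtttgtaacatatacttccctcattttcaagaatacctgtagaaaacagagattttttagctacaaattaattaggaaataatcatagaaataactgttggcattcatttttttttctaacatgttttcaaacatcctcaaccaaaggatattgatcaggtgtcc
Prdm9 and Hormad1 each have a second start in the table, of which 1 is printed. The Clec2g stretch holds 4 CpG and the Gm1698 stretch 0, against 20 in that of Tex12 and 19 in that of Hormad1.

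The 6 libraries held 25144796 to 38113208 reads counted on genes. Replicates of a group differed by more than sampling noise in every pair (chi-square per gene 3.32 to 10.7), so none was a copy of another. On a principal component analysis the first component held 55.0% of the variance and separated Morc1tg/tg from controls, and the second held 19.4% and set Morc1tg/+ replicate 2 and Morc1tg/tg replicate 1 apart from the other 4. Those 2 libraries also had the lowest summed level of 7 red blood cell genes, 28.0 and 32.3 RPKM (reads scaled to exon length and to the mapped reads of the library) against 69.2 to 78.6 in the others. Since each arm holds 1 of them, counts are also given below without both. Defining genes of germ cells and Sertoli cells were read in all 6 libraries. Of 11 epididymis genes, 5 had no read in any of them and the summed level was 0.319 to 0.790 RPKM.

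Morc1 itself followed the labels in all 6 libraries. Its level was 10.2 RPKM in the Morc1+/+ library, 6.29 and 6.46 RPKM in the Morc1tg/+ libraries, and 2.41, 2.06 and 2.32 RPKM in the Morc1tg/tg libraries. The genotypes did not overlap, and the log2 fold change of Morc1tg/tg over controls was -1.74 (SE 0.17, edgeR adjusted p = 0.000153). Between 195 and 304 reads per mutant library still fell on the gene. Tyr, the tyrosinase gene from which the transgene was made, had 0 reads in the Morc1+/+ library, 83 and 85 in the Morc1tg/+ libraries and 116, 144 and 216 in the Morc1tg/tg libraries. Per read on genes, Tyr was at least 29.7-fold higher in Morc1tg/+ and at least 50.0-fold higher in Morc1tg/tg than in Morc1+/+, with the Morc1+/+ library set to a floor of 3 reads. Against the pooled controls Tyr did not pass the threshold (log2 fold change 1.35, SE 0.55, adjusted p = 0.12), and the 2 heterozygotes of that pool carry the transgene too.

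In the P10.5 testis of the mutant more genes fell than rose, and most changes were small. Of 15165 genes tested, 922 (6.08%) were higher and 1404 (9.26%) lower in Morc1tg/tg, 2326 (15.3%) in all. The higher genes had a median log2 fold change of 0.30 (quartiles 0.23 and 0.43), and 31 of them passed 1. The lower genes had a median of -0.39, with quartiles of 0.26 and 0.62 in size, and 125 of them passed 1 (8.90%). Over all genes tested the median was 0.01. The Morc1tg/tg libraries lay above all controls for 910 of the higher genes and below all controls for 1400 of the lower genes, against 15.0% and 20.5% of all genes tested. Counts of calls depended on single libraries: without Morc1tg/tg replicate 3 they were 263 and 659, without Morc1tg/+ replicate 3 407 and 840, without Morc1tg/tg replicate 2 556 and 977, and without the Morc1+/+ library 585 and 991. Without both libraries that stood apart, 1410 genes were higher and 1757 lower.

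**Figure D1:**
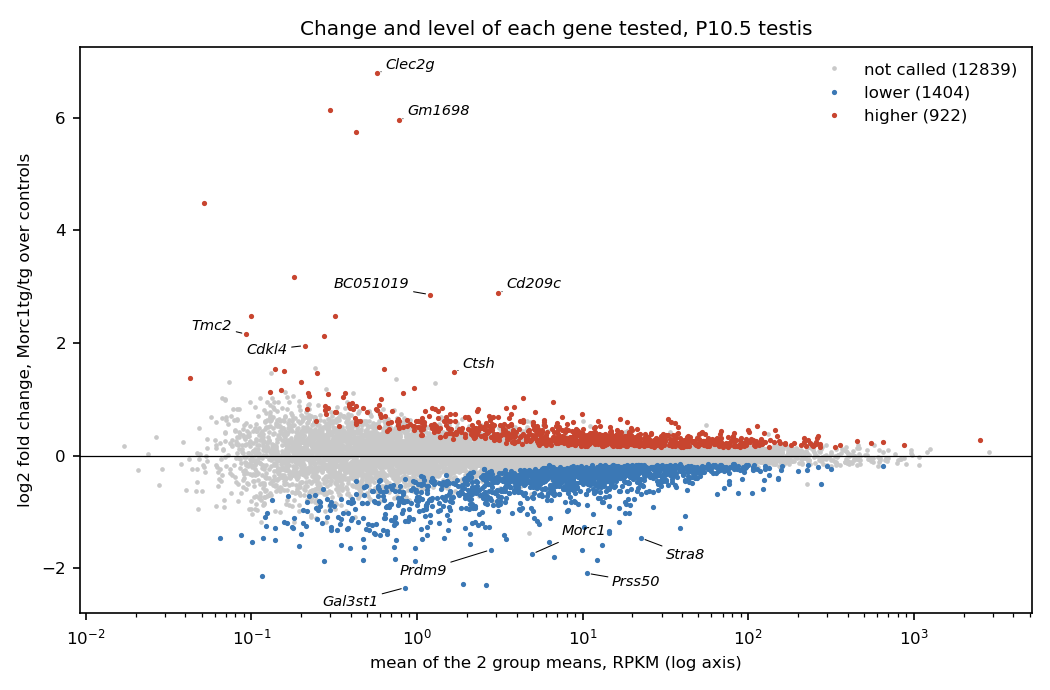
Log2 fold change of Morc1tg/tg over controls (vertical axis) against the mean of the 2 group means in RPKM (horizontal axis, log scale) for each of the 15165 genes tested in the P10.5 testis, with 922 genes called higher, 1404 called lower and the rest in grey. The largest rises were genes of low level, such as Clec2g at 6.80. Falls went down to -2.34, and genes of higher level such as Prss50 (-2.09) and Stra8 (-1.46) were among the genes that fell.

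Stra8, the retinoic acid target that germ cells need to start meiosis, had levels of 36.4, 28.3 and 35.1 RPKM in the controls and 13.2, 10.3 and 12.3 RPKM in Morc1tg/tg. The groups did not overlap, and the log2 fold change was -1.46 (SE 0.10, adjusted p = 1.38e-05). Gm1564, since renamed Meioc and needed for an extended meiotic prophase, fell from 10.6, 10.8 and 9.90 RPKM to 3.48, 2.50 and 2.97 RPKM (log2 fold change -1.80, SE 0.10, adjusted p = 3.62e-06). Prdm9, the histone methyltransferase that sets where meiotic breaks fall, was at 4.27, 3.96 and 4.56 RPKM in controls and at 1.32, 1.22 and 1.42 RPKM in mutants. Its log2 fold change of -1.67 (SE 0.10, adjusted p = 4.76e-06) placed it among the 12 largest falls of genes with a control mean of at least 1 RPKM. Every Morc1tg/tg library lay below every control for these genes, and none of these calls was lost when any 1 library was left out. Gm1564 and Prdm9 were picked by a rule that asked for a call and for groups without overlap.

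All 14 genes listed for the synaptonemal complex and the meiotic cohesin were lower in Morc1tg/tg, with a median log2 fold change of -0.95 and a range of -1.15 to -0.48, against 9.26% of all genes tested. The largest falls were those of Rec8, the meiotic kleisin subunit of cohesin (-1.15, SE 0.09), Ccdc79, which ties telomeres to the nuclear envelope (-1.14, SE 0.12), and Hormad1, which coats the unpaired axes (-1.04, SE 0.08). Sycp3, an axis protein, was at 23.7, 24.8 and 24.0 RPKM in controls and at 12.9, 11.7 and 11.1 RPKM in mutants (-1.01, SE 0.07, adjusted p = 1.82e-05). Sycp1, of the transverse filaments, was at 23.1, 24.8 and 21.5 RPKM and at 14.4, 12.8 and 11.7 RPKM (-0.82, SE 0.08). Syce3, of the central element, had the smallest fall of the list, -0.48 (SE 0.13, adjusted p = 0.0274). The summed level of the list was 214 to 218 RPKM in the 3 controls and 110 to 126 RPKM in the 3 mutants, without overlap.

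Among 18 genes listed for meiotic recombination, 14 were lower, against 9.26% of all genes, none was higher, and the median log2 fold change was -0.82. Dmc1, the meiotic strand exchange protein, fell most after Prdm9, from 10.4, 8.81 and 8.88 RPKM to 3.54, 2.96 and 3.17 RPKM (-1.53, SE 0.10, adjusted p = 7.48e-06). 4930528F23Rik, since renamed Meiob and coding for a single-strand DNA binding protein (-1.48, SE 0.20), Mei1, needed for break formation (-1.40, SE 0.10), and the helicase gene Hfm1 (-1.33, SE 0.21) followed it. Spo11, the enzyme that makes the breaks, was low in all libraries, with 0.742, 0.684 and 0.698 RPKM in controls and 0.408, 0.380 and 0.408 RPKM in mutants (-0.81, SE 0.15, adjusted p = 0.00423). The 4 genes that did not pass were Psmc3ip (-0.10), Mnd1 (-0.14), Rnf212 (-0.04) and Mlh3 (-0.07). Psmc3ip and Mnd1 code for partners of DMC1, and RNF212 and MLH3 act at later crossover steps. Counts of 13 to 14 lower genes of the first list and 14 of the second were found without any 1 library, and the median of neither list turned its sign under any alternative run.

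Genes of later stages were changed in part. Of 16 genes listed for pachytene and later germ cells, 12 had enough reads to be tested, and 4 of them were lower (median -0.23), against 9.26% of all genes. Ybx2, a germ cell RNA-binding protein, fell from 8.31, 7.59 and 8.71 RPKM to 4.66, 4.64 and 4.73 RPKM (-0.79, SE 0.08), and Pdha2 (-0.60), Clgn (-0.56) and Tcfl5 (-0.34) were also lower. Tcfl5 lost its call without Morc1tg/tg replicate 3 (-0.31, adjusted p = 0.053). Prm2, a protamine of sperm heads, had no read in any of the 6 libraries.

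**Figure D2:**
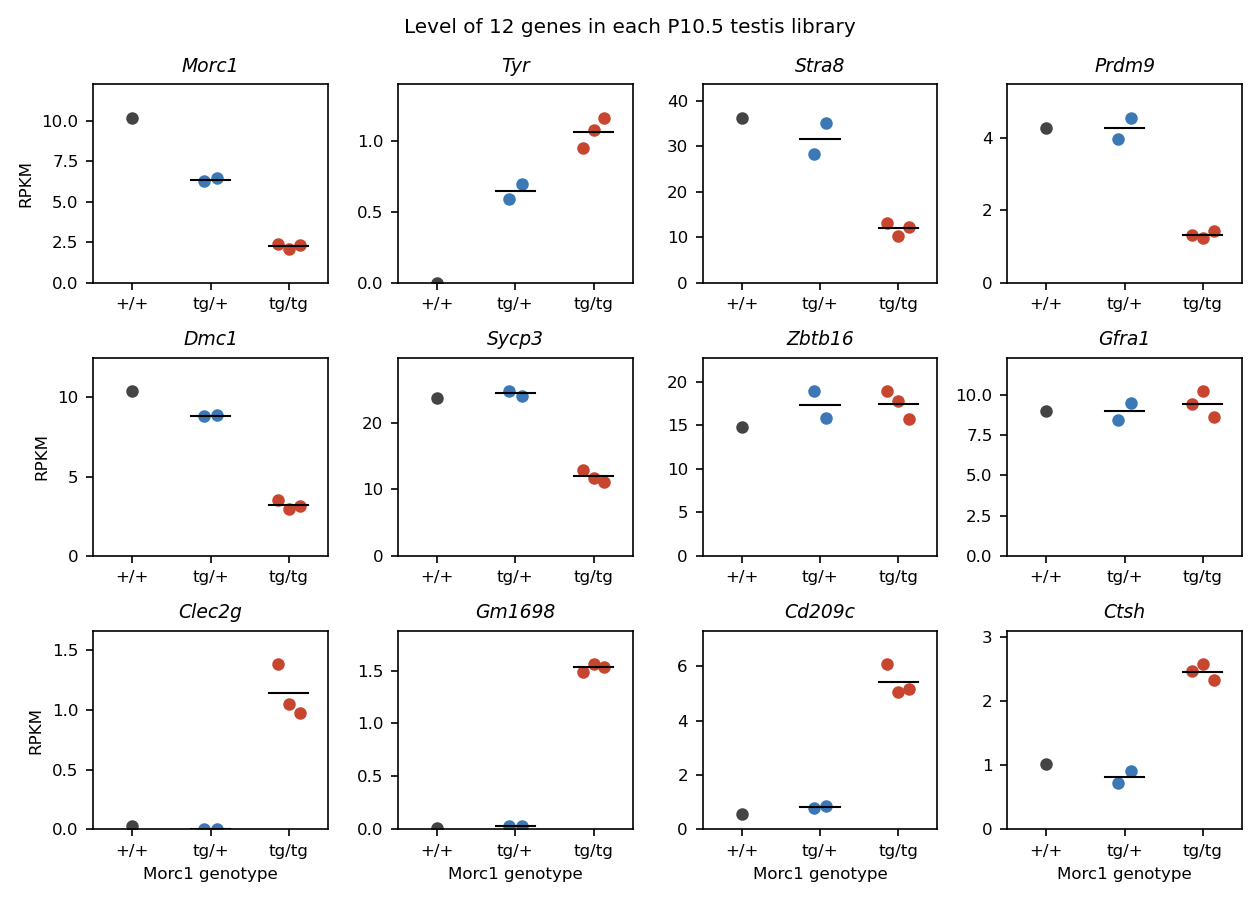
Levels of 12 genes in RPKM (vertical axes, each from 0) in each of the 6 P10.5 testis libraries by Morc1 genotype, where each point is 1 library from 1 mouse and lines are the means of the Morc1tg/+ and Morc1tg/tg libraries. Stra8, Prdm9, Dmc1 and Sycp3 lay lower in all 3 Morc1tg/tg libraries, Zbtb16 and Gfra1 overlapped between genotypes, and Clec2g and Gm1698 had almost no reads in controls.

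Genes of differentiating spermatogonia, the cells just before meiosis, come next. Of 8 tested, 7 were lower (against 9.26% of all genes tested), also without any 1 library, with a median of -0.57. Dmrtb1, which controls the switch from mitosis to meiosis, fell from 20.7, 21.0 and 20.1 RPKM to 9.26, 7.34 and 7.69 RPKM (-1.34, SE 0.08, adjusted p = 6.27e-06). Crabp1, a retinoic acid binding protein, fell by 1.07 on the log2 scale (SE 0.09), and the receptor gene Kit was at 16.3, 19.7 and 16.3 RPKM in controls and 13.9, 11.5 and 11.5 RPKM in mutants (-0.50, SE 0.09, adjusted p = 0.00523). Ccnd2, a cyclin, was the member that did not pass (0.11, adjusted p = 0.164). The summed level of the list was 230 to 245 RPKM in controls and 145 to 163 RPKM in mutants.

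For undifferentiated spermatogonia, 1 of 21 genes was higher and 2 were lower, near the shares of 6.08% and 9.26% over all genes, and the median was 0.05. Zbtb16 (PLZF), a transcription factor that keeps these cells, was at 14.8, 18.9 and 15.8 RPKM in controls and at 19.0, 17.8 and 15.7 RPKM in mutants (0.09, SE 0.09, adjusted p = 0.54). Gfra1, the GDNF co-receptor of the stem cells, was at 8.43 to 9.52 RPKM in controls and at 8.59 to 10.2 RPKM in mutants (0.08, SE 0.07, adjusted p = 0.46). Neither gene was separated by genotype. The genes that passed were Taf4b (-0.43), Sox3 (-0.38) and Pax7 (0.83, at 0.137 to 0.311 RPKM). Sox3 lost its call without Morc1tg/tg replicate 3 or Morc1tg/+ replicate 3, and Pax7 without Morc1tg/tg replicate 2 or 3, Morc1tg/+ replicate 2 or the Morc1+/+ library. The summed level of these 21 genes was 149 to 160 RPKM in controls and 144 to 161 RPKM in mutants.

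Among 13 genes found in germ cells of many stages, 11 were lower (median -0.43), against 9.26% of all genes. Dazl, an RNA-binding protein of the germ line, was at 133, 131 and 127 RPKM in controls and 87.2, 81.3 and 76.4 RPKM in mutants (-0.66, SE 0.05, adjusted p = 4.31e-05), and Ddx4, the mouse vasa gene, fell by 0.34 (SE 0.06). Tex101, a surface protein of germ cells, fell most (-1.27, SE 0.08), followed by Tex11 on the X chromosome (-1.02, SE 0.05), a gene of meiotic recombination, and Tex15 (-0.86, SE 0.06). The summed level was 523 to 541 RPKM in controls and 324 to 372 RPKM in mutants. Without Morc1tg/tg replicate 3, 8 of the 13 passed.

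Genes of the cell cycle and of DNA replication were lower almost as a whole: 25 of 26 fell, against 9.26% of all genes, with a median of -0.44, and 23 to 26 did so without any 1 library. Ccne2, a cyclin of the G1 to S transition, fell most, from 9.11, 8.56 and 8.50 RPKM to 4.83, 3.56 and 3.70 RPKM (-1.11, SE 0.10, adjusted p = 9.55e-05). Rrm2, a subunit of the ribonucleotide reductase, fell by 0.90 (SE 0.08), and the smallest passing fall was that of the replication helicase subunit Mcm7, -0.28 (SE 0.04). Cdk1, the kinase of mitosis, was the exception at -0.22 (adjusted p = 0.16). These genes are not limited to germ cells.

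Genes that silence transposons and build chromatin are set against the 9.26% of all genes tested that were lower. Of 19 piRNA pathway genes 9 were lower (median -0.24), led by the Tudor-domain genes Tdrkh (-0.57, SE 0.06) and Rnf17 (-0.54, SE 0.08), and by Mael (-0.48, SE 0.06). Without Morc1tg/+ replicate 3, Morc1tg/tg replicate 2 or Morc1tg/tg replicate 3, 6 of the 19 passed. Piwil4, which codes for MIWI2, was at 2.35, 2.56 and 2.39 RPKM in controls and at 2.86, 2.62 and 2.35 RPKM in mutants (0.11, adjusted p = 0.49). Of 13 genes for DNA methylation, 2 were lower, near the share over all genes, the maintenance methyltransferase Dnmt1 (-0.40, SE 0.05) and its partner Uhrf1 (-0.45, SE 0.05). Dnmt3l was at 0.280 to 0.776 RPKM in all 6 libraries and did not pass (-0.59, SE 0.30, adjusted p = 0.20). Of 17 genes for H3K9 methylation and heterochromatin, 5 were lower, among them Setdb2 (-0.58, SE 0.06) and the remodeller Hells (-0.54, SE 0.07).

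None of the other Morc genes that were tested rose, and 1 of the 5 genes listed for the Morc family and Smchd1 was not tested. Morc4 fell from 2.14, 2.07 and 1.81 RPKM to 1.25, 1.04 and 1.14 RPKM (-0.80, SE 0.11, adjusted p = 0.000869). Morc2a (-0.25) and Morc3 (-0.20) passed with smaller falls that were lost without Morc1tg/tg replicate 3, and Morc3 was also lost without any of 4 of the other 5 libraries. Of 23 genes for DNA damage and apoptosis, 4 were lower, against 9.26% of all genes, the checkpoint kinase genes Chek1 (-0.57), Atm (-0.42), Atr (-0.40) and Chek2 (-0.33). Atm lost its call without any library other than the Morc1+/+ one and Morc1tg/tg replicate 1, and Chek2 without any other than Morc1tg/+ replicate 2, so that 2 of the 23 were lower without Morc1tg/+ replicate 3, Morc1tg/tg replicate 2 or Morc1tg/tg replicate 3. Interferon and nucleic acid sensing genes showed 3 of 24 higher (median 0.14), against 6.08% of all genes, Tmem173, which codes for STING, Rtp4 and the RNA sensor gene Ddx58. The count was 1 without Morc1tg/tg replicate 3 and 2 without the Morc1+/+ library, Morc1tg/+ replicate 3 or Morc1tg/tg replicate 2. Rtp4 lost its call without any library other than Morc1tg/+ replicate 3 and Morc1tg/tg replicate 1, and Tmem173 without Morc1tg/+ replicate 3 or Morc1tg/tg replicate 3.

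Of 17 retinoic acid genes tested, 12 did not pass, and the median was 0.02. Of the others, Rbp4, a retinol carrier (-0.69, SE 0.11), and Rarg, the receptor of differentiating spermatogonia (-0.45, SE 0.09), were lower. The synthesising enzyme gene Aldh1a3 rose from 3.67, 3.52 and 3.18 RPKM to 4.70, 4.79 and 4.81 RPKM (0.47, SE 0.08), and Cyp26b1, whose enzyme breaks retinoic acid down in somatic cells, rose from 75.2, 76.4 and 65.5 RPKM to 89.9, 92.9 and 86.7 RPKM (0.33, SE 0.06). In total 3 of the list were higher and 2 lower, against 6.08% and 9.26% of all genes, and these numbers were 3 or 4 and 2 or 3 without any 1 library.

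Some somatic markers were higher in the mutant testis, where 6.08% of all genes tested were higher. Of 15 Sertoli cell genes 7 were higher and none was lower (median 0.19). Clu, the gene of highest level among all that were called higher, was at 2207, 2479 and 2172 RPKM in controls and at 2582, 2872 and 2799 RPKM in mutants (0.28, SE 0.06, adjusted p = 0.0158), and lost its call without Morc1tg/+ replicate 3, Morc1tg/tg replicate 2 or Morc1tg/tg replicate 3. Gdnf, the growth factor of spermatogonial stem cells, had the largest passing rise (0.34), which was lost without the Morc1+/+ library, Morc1tg/+ replicate 3, Morc1tg/tg replicate 1 or Morc1tg/tg replicate 3, and Wt1, a transcription factor of Sertoli cells, did not pass (0.05, SE 0.05). How many Sertoli cell genes passed rested on single libraries, with 1 without Morc1tg/tg replicate 3, 2 without Morc1tg/+ replicate 3, and 3 without Morc1tg/tg replicate 2 or the Morc1+/+ library. Other called genes of very high level also moved by small amounts, Gstm1 (0.19) and Ctsl (0.24) upwards and the ribosomal protein gene Rplp2 (-0.24) and the calmodulin gene Calm2 (-0.18) downwards, and each of them lost its call without Morc1tg/tg replicate 3 and without Morc1tg/+ replicate 3, as well as without at least 1 other library. The summed level of the Sertoli cell list was 4958 to 5114 RPKM in controls and 5358 to 5971 RPKM in mutants. Clu alone made up a large part of that sum and of its rise. The sum therefore does not show a rise of the list as a whole.

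Macrophage genes had the highest median of the somatic lists with more than 4 genes tested, 0.46, with 6 of 12 higher and none lower. C1qb, of the complement component C1q, was at 6.56, 6.21 and 6.80 RPKM in controls and at 8.34 RPKM or more in each mutant (0.57, SE 0.11, adjusted p = 0.0051). Their summed level was 55.1 to 67.0 RPKM in controls and 71.8 to 96.6 RPKM in mutants. The count was 2 without Morc1tg/tg replicate 2 or Morc1tg/tg replicate 3, 4 without either Morc1tg/+ library, and 10 without Morc1tg/tg replicate 1. Of 10 Leydig cell genes 2 were higher, Hsd3b6, a steroid dehydrogenase of adult Leydig cells (1.53, SE 0.29, at 0.205, 0.509 and 0.253 against 0.800, 1.07 and 0.935 RPKM), and Lhcgr, the luteinising hormone receptor (0.56, SE 0.13). Lhcgr lost its call without the Morc1+/+ library, Morc1tg/+ replicate 3 or Morc1tg/tg replicate 3, which left 1 of the list. Reads of Hsd3b6 can be uncertain, since the family holds close copies. Pdgfra (0.38, SE 0.06) and Dcn (0.36, SE 0.06) among 7 stromal genes and Des among 8 peritubular genes (0.36, SE 0.07) were higher. Without the Morc1+/+ library 6 of the stromal genes were higher, and without Morc1tg/+ replicate 2 there were 2 peritubular genes. Of 9 endothelial genes, Tek (0.43) and Cdh5 (0.25) passed, and none did so without Morc1tg/+ replicate 2 or 3 or Morc1tg/tg replicate 1 or 3. No red blood cell or fat gene passed in edgeR, of 4 tested in each list. At an unadjusted p under 0.05 there were 0 and 2, and DESeq2 called 0 and 1. A shift in the share of cell types in the RNA was not tested.

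**Figure D3:**
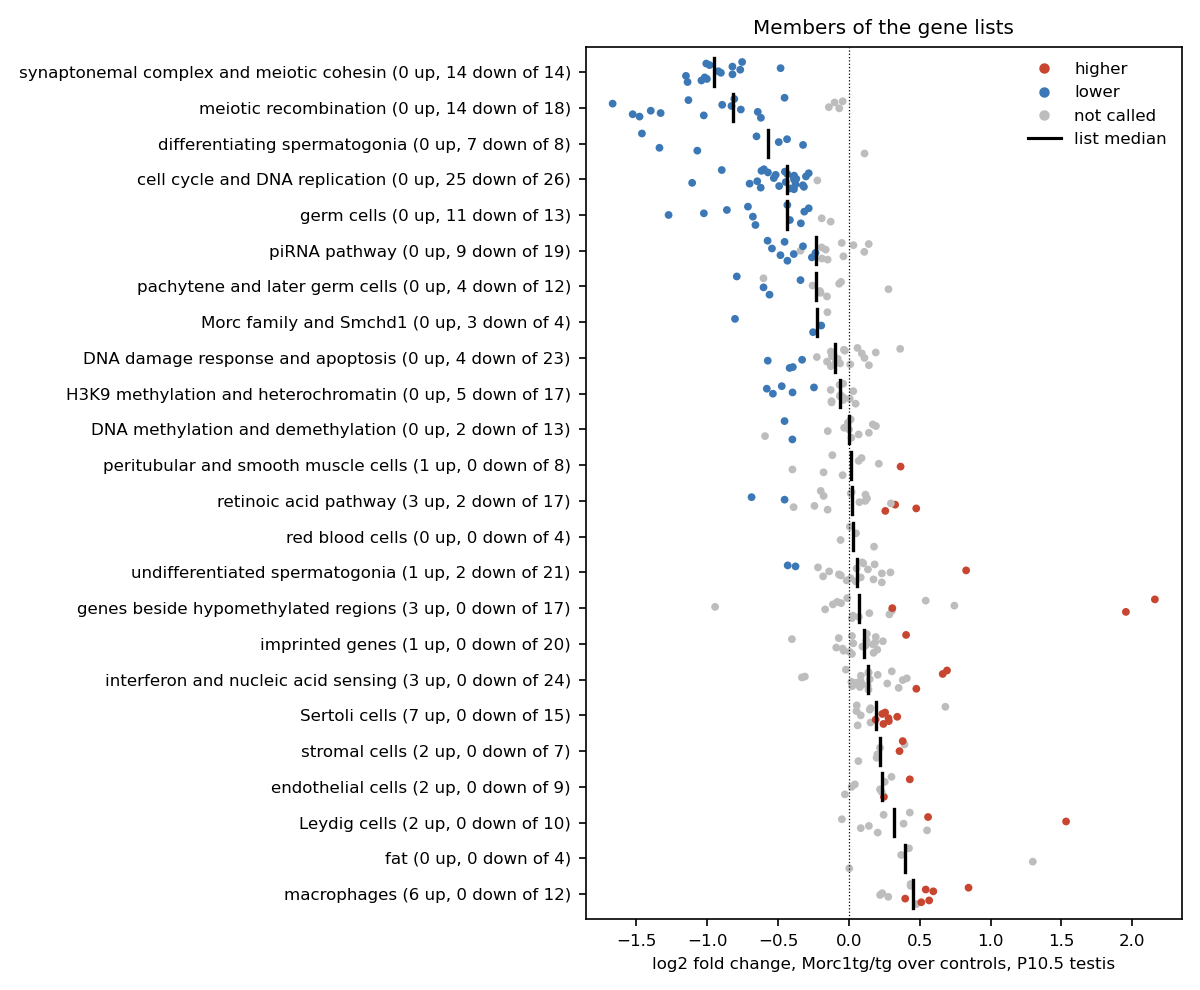
Log2 fold change of Morc1tg/tg over controls in the P10.5 testis (horizontal axis) for each tested member of 24 gene lists (vertical axis, with the numbers called higher and lower), where each point is 1 gene and black bars are list medians. The lists of meiosis, differentiating spermatogonia and the cell cycle lay to the left of 0 and those of macrophages, Leydig and Sertoli cells to the right.

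The largest rises are given among called genes with a mean of at least 1 RPKM in the mutant and no overlap between groups. Clec2g, a C-type lectin gene of a natural killer receptor cluster (chr6, 128884399 to 128970537), had 2, 0 and 0 reads in the controls and 97, 81 and 104 in the mutants. Per read on genes this was a ratio of 128 (95% interval 35.1 to 1063, exact, for counting error only), and the fitted log2 fold change was 6.80 (SE 0.48, adjusted p = 1.20e-05). The gene overlaps 5 other genes in the annotation, 3 of them on its own strand, so the source of its reads is uncertain. Gm1698, a predicted gene on chromosome 8, had 1, 2 and 2 reads in the controls and 98, 113 and 154 in the mutants, a ratio of 66.3 (interval 28.2 to 206) and a log2 fold change of 5.97 (SE 0.27, adjusted p = 1.14e-06). Control and mutant libraries were far apart for both genes.

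Cd209c, which codes for a SIGN-type lectin of the DC-SIGN family, rose from 0.558, 0.790 and 0.861 RPKM to 6.09, 5.04 and 5.16 RPKM (2.90, SE 0.16, adjusted p = 3.62e-06). BC051019 rose from 0.221, 0.297 and 0.359 RPKM to 1.96, 2.19 and 2.13 RPKM (2.86, SE 0.18), but overlaps D930014E17Rik on the opposite strand. Ctsh, a lysosomal protease gene, rose from 1.01, 0.726 and 0.910 RPKM to 2.47, 2.58 and 2.33 RPKM (1.49, SE 0.13, adjusted p = 6.75e-05). The other large rises above that level were smaller, among them Ly86 (1.12), Gzmc (1.02), Gdpd3 (0.96), Ky (0.86), Ier3 (0.85) and Rnf125 (0.85). Gzmc, a granzyme gene, lost its call without Morc1tg/tg replicate 2 or 3, and Rnf125, a ubiquitin ligase gene, without Morc1tg/tg replicate 3. None of the 12 was a germ cell marker of the lists.

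The largest falls among genes at 1 RPKM or more in controls were those of Gal3st1 (-2.34), Ly6k (-2.29), Otud6a (-2.28) and Prss50 (-2.09). Gal3st1 codes for the sulfotransferase that makes the sulfated lipid of male germ cells, and went from 1.48, 1.48 and 1.33 RPKM to 0.225, 0.272 and 0.319 RPKM (SE 0.19, adjusted p = 3.73e-05). Prss50, a testis-specific serine protease gene, went from 18.7, 15.7 and 17.3 RPKM to 4.33, 4.07 and 3.72 RPKM (SE 0.09, adjusted p = 1.14e-06). Ly6k codes for a partner of TEX101 on the germ cell surface. Esx1, an X-linked homeobox gene of spermatogenic cells and placenta, fell from 19.0, 21.0 and 17.8 RPKM to 6.24, 5.13 and 4.63 RPKM (-1.85, SE 0.11), and the Notch ligand gene Dll3 fell by 1.84 on the log2 scale (SE 0.16).

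Genes beside regions that the study names as hypomethylated in Morc1tg/tg germ cells were examined next. Of 17 tested, 3 were higher and none was lower, with a median of 0.07, against 6.08% of all genes higher. The count was 6 with no filter on low counts or without both libraries that stood apart, and 1 higher and 1 lower of 14 with at least 1 CPM (reads scaled to the depth of the library) in 3 libraries. Cdkl4, a kinase-like gene, was at 0.0632, 0.0940 and 0.0958 RPKM in controls and at 0.384, 0.393 and 0.229 RPKM in mutants (1.96, SE 0.33, adjusted p = 0.00302). Tmc2, known as a channel gene of hair cells, was at 0.0289, 0.0382 and 0.0328 RPKM and at 0.198, 0.0999 and 0.159 RPKM (2.16, SE 0.42, adjusted p = 0.00599). Both stayed below 0.5 RPKM in every library. The acetyltransferase gene Kat2b rose by 0.31 (SE 0.05) from 12.0 to 12.6 RPKM in the controls to between 14.8 and 15.8 RPKM. Neb, for the giant muscle protein nebulin, was at 0.481, 0.787 and 0.528 RPKM in controls and at 1.55, 0.645 and 0.817 RPKM in mutants, which overlapped, and did not pass (0.74, SE 0.28, adjusted p = 0.0965). It passed without Morc1tg/+ replicate 2 (1.00, adjusted p = 0.042), without Morc1tg/tg replicate 2 (0.97, adjusted p = 0.042), with no filter on low counts (adjusted p = 0.031) or without both libraries that stood apart (0.57, adjusted p = 0.0073). Without Morc1tg/tg replicate 1 its value was 0.31 (adjusted p = 0.296). Without Morc1tg/+ replicate 2, 5 of the 17 were higher. Of 20 imprinted genes tested, Zim1 was higher (0.40, SE 0.08) and none was lower, near the share of 6.08% over all genes. By DESeq2, upper-quartile scaling or no filter 3 were higher, and without the Morc1+/+ library, Morc1tg/+ replicate 2, Morc1tg/tg replicate 2 or Morc1tg/tg replicate 3 the count was 5, 2, 2 or 0. Rasgrf1, imprinted and expressed from the father's copy, was at 0.106 to 0.205 RPKM in all libraries (-0.40, adjusted p = 0.30).

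Called genes were also counted by chromosome, as a description. On the X chromosome 81 of 603 genes tested were lower (13.4%) and 28 higher (4.64%), and on the autosomes the share of lower genes went from 6.27% on chromosome 13 to 11.2% on chromosome 4. On the Y chromosome 4 of 9 genes tested were lower. Within 5 Mb of Morc1 35 genes were tested, of which 5 passed, counting Morc1, which is near the 15.3% of all genes that were called. C330027C09Rik, 363 kb away, fell by 0.64 (SE 0.06), and Spice1 by 0.25, while Boc (0.33) and Ccdc80 (0.25) rose. Dppa4 and Dppa2, the nearest genes with a known role in early embryonic cells, did not pass (0.04 and -0.12, adjusted p = 0.85 each).

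Promoters of called genes were described by base composition and by motifs. A RefSeq promoter (250 bases before to 50 after a start) was matched by name to 11800 of the 15165 genes tested, 1186 of them through a synonym. The median number of CpG was 13 in promoters of higher genes, 23 in those of lower genes and 19 over all genes tested. Among the 12 largest rises, 9 genes had a promoter and their median was 5. The synaptonemal complex, cohesin and recombination lists had 35 promoters of 30 genes. CACGTG was found in 9 of these promoters (25.7%), GGCGGGAA in 8 (22.9%) and CNCCTCAG in 7 (20.0%). The Hormad1, Tex12, Sycp3 and Prdm9 stretches printed above hold matches, whereas each motif was absent from most of the 35. Over all genes tested the shares were 9.63%, 3.81% and 9.11%, and over all 32851 RefSeq promoters they were 7.15%, 2.19% and 7.94%. Promoters of all lower genes held them in 11.5%, 7.32% and 12.9%, and those of higher genes in 7.09%, 2.58% and 8.06%. The 9 promoters matched among the 12 largest rises held 0 of each, but are too few to set against these shares. All these shares count promoters rather than genes, so both starts of Hormad1, whose stretches are nearly the same, were counted. The motif hits are matches of letters, given as a description.

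In germ cells sorted at the same age, the fall was smaller for part of the meiotic genes. There 901 (6.43%) of 14019 genes were higher and 811 (5.79%) lower in Morc1tg/tg. The sorted-cell libraries held 7474627 to 9641942 reads on genes, fewer than the 25144796 to 38113208 of the testis libraries. Numbers of calls in the testis and in sorted cells are therefore not on an equal footing. Of the 14 synaptonemal complex and cohesin genes, 6 were lower in sorted cells, with a median of -0.26, against 14 and -0.95 in the testis. The difference between the effects, tested as an interaction term, passed for 6.81% of all genes (3.66% more positive and 3.15% more negative in the testis). It passed for 8 of the 14 genes, all more negative in the testis, and for 5 of the 18 recombination genes in the same direction (medians -0.82 in the testis and -0.29 in sorted cells). Dmc1 fell by 1.53 in the testis and by 0.41 in sorted cells (interaction -1.09, adjusted p = 0.000183), and Sycp1 by 0.82 and 0.25 (interaction -0.54, adjusted p = 0.0062). For Stra8 (-1.46 and -1.08), Prdm9 (-1.67 and -1.39) and Rec8 (-1.15 and -1.20) the interaction did not pass (adjusted p = 0.156, 0.379 and 0.896). It did not pass for Sycp3 either (-1.01 and -0.67, adjusted p = 0.218). That does not show that the effects were alike, and a difference between these genes and Dmc1 or Sycp1 was not tested. Somatic markers moved in sorted cells too. Of 14 Sertoli cell genes tested there 4 were lower and 0 higher (median -0.53), and 4 had a more positive effect in the testis by the interaction term. Of 4 stromal genes tested there 2 were higher. A difference between genotypes in the somatic RNA of the sorted libraries was not tested.

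Of the 13 pan-germ cell genes, with medians of -0.43 in the testis and 0.09 in sorted cells, 12 were more negative in the testis by the interaction term. Dazl changed by -0.66 and 0.07, and Ddx4 by -0.34 and 0.23. Of the 26 cell cycle genes, 25 were lower in the testis and 3 in sorted cells (medians -0.44 and -0.03), and 15 had a more negative effect in the testis. The undifferentiated spermatogonia list had a median of 0.46 in sorted cells with 10 of 21 higher, among them Zbtb16 (0.41) and Gfra1 (0.47), and 0.05 with 1 higher in the testis. Of these 21 genes the interaction passed for 1. Over all genes, of the 1404 that were lower in the testis 1398 were also tested in sorted cells, where 232 were lower (16.6%, and 29.3% of the genes lower there) and 21 higher. Of the genes higher in the testis 760 were tested there. Of these, 131 were higher (17.2%, and 14.8% of the genes higher there) and 30 lower (3.95%), Clu and Gstm1 among the latter.

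Several of the large rises were larger in sorted cells. Ctsh rose by 1.49 in the testis and by 4.96 in sorted cells, where its mean level went from 0.401 to 13.7 RPKM (interaction -3.45, adjusted p = 5.47e-05). Gdpd3 (0.96 and 4.52), Ky (0.86 and 3.65) and Rnf125 (0.85 and 3.41) differed in the same way. In the controls Gdpd3 was at 4.55 RPKM in the testis and 0.347 RPKM in sorted cells, and Ctsh at 0.883 and 0.401 RPKM. Clec2g, at 6.80 and 7.19, and Cd209c, at 2.90 and 3.84, gave no passing interaction (adjusted p = 0.940 and 0.0738), which does not show that they were alike. Neb, which did not pass in the testis, was higher in sorted cells (1.23, adjusted p = 1.14e-12).

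By P14.5 the number of changed genes was larger, with 2257 (14.8%) higher and 3066 (20.1%) lower of 15283. Of 1404 genes lower at P10.5, 915 were also lower at P14.5 (65.2%, and 32.0% of the genes lower there), and of 916 higher genes that were tested at both ages 489 were higher at both (53.4%, and 21.8%). The interaction of genotype and age passed for 8.22% of all genes, 6.73% with the higher value at P10.5 and 1.49% with the lower. The synaptonemal complex and cohesin genes went from a median of -0.95 to -1.41, and the interaction passed for 7 of 14, 6 with a larger fall at P14.5. Hormad1 fell by 1.04 at P10.5 and by 2.19 at P14.5 (interaction 1.15, adjusted p = 0.0012), and Sycp3 by 1.01 and 2.13. Other genes, singled out after their values were seen, had the larger fall at P10.5. Stra8 fell by 1.46 and 0.64 (interaction -0.81, adjusted p = 0.00904), Prdm9 by 1.67 and 0.84 (interaction -0.82, adjusted p = 0.00114), and Rec8 by 1.15 and 0.50 (interaction -0.65, adjusted p = 0.0347). Of 8 differentiating spermatogonia genes, 5 had a larger fall at P10.5. Of 12 pachytene genes, 4 were lower at P10.5 and 10 at P14.5, where the median was -2.28, and the interaction passed for 10.

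Somatic lists gave almost no passing interaction with age. At P14.5, 14 of 15 Sertoli cell genes were higher (median 0.47), against 7 at P10.5, and the interaction passed for 1 of them. The macrophage list had a median of 0.15 at P14.5, and the interaction passed for none of its 12 genes, so a difference between the ages was not shown for either list. At P14.5, 0 of 12 macrophage, 0 of 10 Leydig cell, 0 of 9 endothelial, 0 of 8 peritubular and 1 of 7 stromal genes were higher. Of the Leydig cell genes 1 was lower. Over all genes tested at that age 14.8% were higher. The interaction passed for none of the Leydig cell, endothelial, peritubular and stromal genes.

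**Figure D4:**
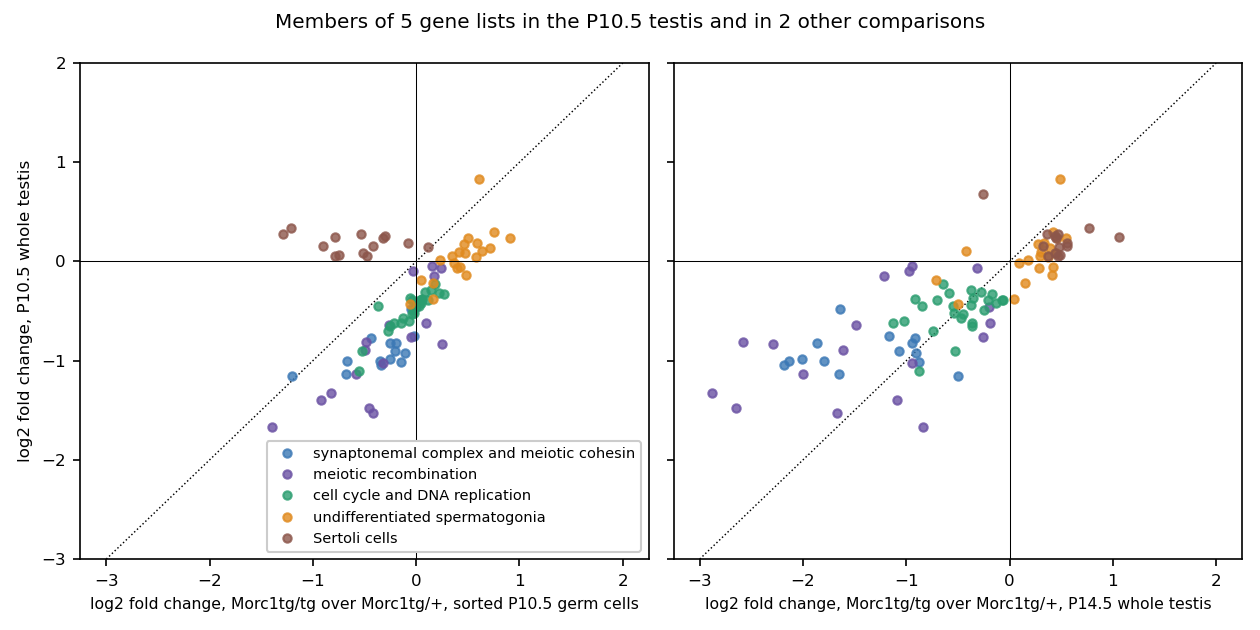
Log2 fold change in the P10.5 whole testis (vertical axes) against that in sorted P10.5 germ cells (left) and in the P14.5 whole testis (right), for the members of 5 gene lists, where each point is 1 gene and the dotted line marks equal change. On the left most cell cycle and meiotic genes lay below the line, with a passing interaction for 15 of 26 cell cycle, 8 of 14 synaptonemal complex and cohesin and 5 of 18 recombination genes, while Rec8 lay at -1.15 and -1.20. Many meiotic genes lay above it on the right, where their fall at P14.5 was larger.

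In the Dnmt3l line more genes were called at the same age, with 3900 (24.9%) higher and 4539 (29.0%) lower of 15665, or 53.9% in all. That fit held 9 libraries against 6 in the Morc1 comparison, so the numbers of calls are not on an equal footing. Of 1403 genes lower in Morc1tg/tg and tested in both lines, 1288 were lower in Dnmt3l-/- (91.8%, and 29.7% of the genes lower there), and of 908 higher genes 663 were higher (73.0%, and 17.3%). The interaction of genotype and line passed for 17.6% of all genes (9.45% with the higher and 8.14% with the lower value in the Morc1 line). The mutated gene goes with the mouse line and with the make-up of the control arm here, so these cannot be told apart. Of the 1404 lower genes, 488 had the larger fall in Dnmt3l-/- by that term and 21 the smaller. The meiotic lists had medians of -0.95 and -1.38 for the synaptonemal complex and cohesin and -0.82 and -1.36 for recombination, and for 5 of 14 and 5 of 18 genes the fall was larger in Dnmt3l-/-. Dmc1 fell by 1.53 and 1.41 in the Morc1 and Dnmt3l lines. The piRNA genes were farther apart, with 9 of 19 lower in Morc1tg/tg and 19 of 19 in Dnmt3l-/- (medians -0.24 and -1.23, interaction for 17). Of 21 undifferentiated spermatogonia genes, 4 were higher and 10 lower in Dnmt3l-/- (median -0.20), with Zbtb16 at 0.09 and -1.18 in the Morc1 and Dnmt3l lines and Gfra1 at 0.08 and 0.55.

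The most strongly raised genes were partly shared between the lines. Clec2g rose by 6.80 in Morc1tg/tg and 6.68 in Dnmt3l-/-, and BC051019 by 2.86 and 3.04. Cd209c rose by 2.90 and 1.03 (interaction 1.82, adjusted p = 0.000398). Gm1698 stayed near 0 in the Dnmt3l line, with mean levels of 0.0637 RPKM in controls and 0.118 RPKM in Dnmt3l-/-, and was not tested there alone, while the joint fit gave an interaction of 4.98 (adjusted p = 0.000115). Tmc2 rose more in Dnmt3l-/- (2.16 and 4.59) and Cdkl4 did not rise there (1.96 and 0.01). Morc1 itself was lower in Dnmt3l-/- testis, at a mean of 6.58 RPKM against 12.6 RPKM (-0.89, adjusted p = 3.21e-05).

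Most genes called in the P10.5 testis were not called in all 3 comparisons of the Morc1 line. Of the 922 higher genes 83 were higher in all 3, and of the 1404 lower genes 178 were lower in all 3. The shared higher genes include Clec2g, Gm1698, Cd209c, BC051019, Ctsh, Tmc2 and Kat2b, and the shared lower genes Gal3st1, Ly6k, Otud6a, Prss50, Prdm9, Stra8 and Dmc1.

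To place the changed genes by cell type and age, classes were made from libraries that the P10.5 comparison did not use, and are given without a test. Of 1031 genes over 2-fold higher in sorted Morc1tg/+ germ cells than in the 2 preliminary testis libraries, 259 were lower in Morc1tg/tg testis (25.1%, and 18.4% of all lower genes) and 15 higher. Of 6506 genes over 2-fold higher in the testis, 66 were lower (1.01%) and 818 higher (12.6%), which is 88.7% of all higher genes. Most of the lower genes, 1079 or 76.9%, were among the 7628 genes between, of which 14.1% were lower. That class also holds germ cell genes, with log2 ratios of sorted cells over testis of 0.25 for Ddx4, 0.50 for Sycp3 and 0.19 for Kit. Dazl (1.03) and Sycp1 (1.69) lay in the germ cell class. Medians of the log2 fold change were -0.22 in the germ cell class, 0.11 in the testis class and -0.07 in the genes between. By age, 56.5% of genes passed between Morc1tg/+ testis at P14.5 and the preliminary P10.5 libraries, 28.7% higher and 27.8% lower at P14.5. Among them, 20.3% of 4104 genes that were higher at P14.5 were lower in the P10.5 mutant, and 3.24% were higher. Of 4331 genes that were lower at P14.5, 2.05% were lower in the mutant and 11.1% higher. The preliminary libraries were 1 Morc1+/+ and 1 Morc1tg/+, so in part the Morc1 genotype goes with these classes. Kit and batch go with them as well, and none of these can be told apart from cell type and age.

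**Figure D5:**
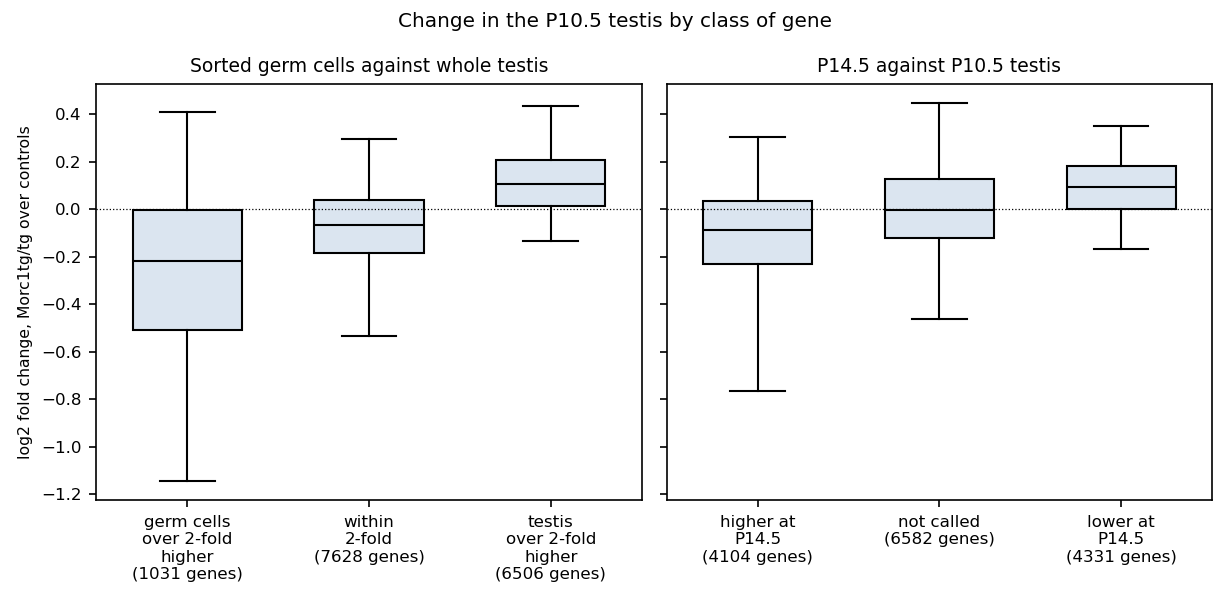
Log2 fold change of Morc1tg/tg over controls in the P10.5 testis (vertical axis) by class of gene, from sorted germ cells against whole testis (left) and from P14.5 against P10.5 testis (right), where boxes span the quartiles around the median and whiskers the 5th to 95th percentile. The median was -0.22 in genes higher in germ cells and 0.11 in genes higher in the whole testis, and -0.09 and 0.09 in genes higher and lower at P14.5.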

How the data were processed

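Whole testis RNA of the Morc1 line at P10.5 was compared with edgeR, with the P14.5 testis, sorted P10.5 germ cell and Dnmt3l libraries fitted beside it. The authors trimmed reads to 50 bp, dropped reads of ribosomal RNA, and kept reads with a unique site in mm9 and up to 2 mismatches. They deposited raw counts per gene, made with HTSeq without normalization, and RPKM values, which the authors scaled to exon length and mapped reads. Reads with many sites, as in repeats, are lost by this, and so is part of the reads of close gene copies. The aligner of the gene reads and the version of HTSeq are not given in the sources used here.

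Groups and replicate numbers came from the labels. edgeR 4.0.16 in R 4.3.3 served for the tests, with its quasi-likelihood fit of the counts (TMM, filterByExpr, Benjamini-Hochberg over all genes tested, threshold 0.05), genotype being the single term. Of the genes listed, 11220 were removed by the filter, of which 6011 had no read in the 6 libraries. Differences between comparisons were interaction terms. Levels are the authors' RPKM values. Alternatives were other normalizations and filters, DESeq2 1.42.0, added preliminary libraries, a replicate block and leaving out each library. Depth was 25144796 to 38113208 reads on genes per library. The authors had tested with DESeq. The p-values rest on the spread between animals within each arm, which in the pooled control arm includes any difference between Morc1+/+ and Morc1tg/+.

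Named genes were Morc1, Tyr, genes the study names, the 12 largest rises and 12 largest falls among called genes whose groups did not overlap and whose higher group had at least 1 RPKM, members of 25 gene lists with up to 4 called members first, and the 3 called genes of highest level in each direction, of which 2 genes are not reported here. Further list members, neighbours and genes shared by the Morc1 comparisons were named after their values were seen. The members and lists were chosen with earlier results of these data known. List symbols matched the files for 369 of 377 entries, 6 by a synonym.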

Additional observations from a re-analysis of the deposited data

Results flagged for a closer look

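Of 84 interaction tests (28 named genes against 3 other comparisons), 22 passed an adjusted p of 0.05 over all genes in edgeR. The shares over all genes were 8.22% against the P14.5 testis, 6.81% against germ cells and 17.6% against Dnmt3l-/-, and most of the 28 were picked for large changes in the P10.5 testis. Each value below is the log2 fold change in the P10.5 testis minus that in the other comparison. Against the P14.5 testis the difference was 2.53 for Cdkl4, 3.89 for Gm1698, -2.96 for Ky, -1.27 for Otud6a, -1.03 for Esx1, -0.78 for 1700013H16Rik, -0.82 for Prdm9 and -0.87 for Tc2n. Cdkl4 rose by 1.96 at P10.5 and had a value of -0.56 at P14.5 that did not pass, and Ky rose by 0.86 and 3.84. Against sorted P10.5 germ cells the difference was -0.79 for Kat2b, -3.45 for Ctsh, -3.55 for Gdpd3, -2.77 for Ky, -2.56 for Rnf125, -0.55 for Esx1 and -0.69 for Gm1564. Against the Dnmt3l-/- testis it was -0.90 for Morc1, -2.46 for Tmc2, 1.91 for Cdkl4, 4.98 for Gm1698, 1.82 for Cd209c, 1.10 for Ctsh and 1.02 for Esx1.

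In the 4 Morc1tg/+ libraries of sorted germ cells, 1 library lay far from the others for 5 of 28 genes, by a criterion that marks about 1 group in 20 by chance for normally spread values, which values at 0 are not. Clec2g was at 0.0753 RPKM in 1 library and listed at 0 in the other 3, and Ly86 was at 0.124 RPKM in 1 and at 0 in the other 3. Otud6a was at 10.2 RPKM with the nearest library at 5.55 RPKM, 1700014N06Rik at 2.31 RPKM with the nearest at 3.50 RPKM, and Tc2n at 4.61 RPKM with the nearest at 3.56 RPKM.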

How the results depend on the processing

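Among 106 named genes 96 were called, 70 kept the call without any 1 library, 26 lost it without at least 1, and none of these turned its sign under any alternative run. Signs of the other called genes were compared only where an alternative called them too. In the P10.5 testis leaving out 1 library gave 263 to 962 higher and 659 to 1390 lower genes, in place of 922 and 1404. Other normalizations, filters and DESeq2 gave 925 to 1107 and 1276 to 1430, and all genes they shared with the calls had the same direction. Added preliminary libraries with a batch term gave 1027 and 1616. Without both libraries that lay apart on the second component, a choice made after seeing the data, 1410 genes were higher. Replicate numbers were not found to pair the samples (correlations -0.27, -0.29 and -0.07 between deviations of same-numbered libraries), and the replicate block gave 377 higher and 794 lower genes.

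For the other comparisons, leaving out 1 library gave 3517 to 5001 genes at P14.5 (5323 with all), 1144 to 1824 in germ cells (1712) and 6964 to 8745 in the Dnmt3l line (8439), and the block gave 5118, 1575 and 8024. Interaction counts were 772 to 1746 against P14.5 (1287), 1753 to 4021 against the Dnmt3l line (2797) and 412 to 1321 against germ cells (1034, and 1728 by DESeq2); the cause was not tested. In the upper class of genes by germ cell level, 34.7% were lower with a pseudocount of 1 in place of 25.1%, and by age 25.4% with classes cut by RPKM, in place of 20.3%; these classes hold fewer genes.

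Signs turned for 3 genes that were never called. Cidea (0.00) was at -0.00197 with the preliminary libraries, at -0.00121 with the block and at -0.0782 without both libraries that lay apart, and between -0.0707 and 0.0709 without 1 library. Hba-a1 (-0.06) and Hbb-b1 (0.05), haemoglobin genes, went from -0.416 to 0.182 and from -0.288 to 0.349. The filter on low counts left 11220 genes untested, and 6 libraries limit what can be called.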
